A study of Mus musculus with 6 samples.

Results

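Accessible chromatin was examined at 10 core genes of the circadian clock in mouse hepatocytes, measured by ATAC-seq, an assay in which a transposase inserts adapters into open DNA. The genes were Arntl, Clock, Npas2, Per1, Per2, Per3, Cry1, Cry2, Ciart and Usp2. A region belonged to one of these genes when the gene's span was the nearest protein-coding span to the region's midpoint, within 50 kb. Merging the peaks of all 6 libraries gave 109853 regions, of which 102 belonged to the clock genes, and 50 of these had a peak in every library (shared regions). Distances run from a region's midpoint to the nearest listed start of its gene, and coordinates are on mm10. The rule that assigns regions to genes used no measured value.

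Hepatocyte nuclei were sorted by the transcription factor HNF4a from livers of male mice with 2 floxed genes, of which Ncor1 encodes the corepressor NCOR1. All mice carried both floxed genes and received an adeno-associated virus (AAV), with eGFP in 3 control libraries and with Cre recombinase in 3 double knockout (dKO) libraries. Livers were taken 5 days after the virus at zeitgeber time 10, which is 10 h after lights on. The age of the mice, the promoter that drives Cre and whether each library came from its own animal were not given in the sources used here, so p-values measure the spread between libraries, which may in part be technical. Which exons are floxed was not given either, so the deletion was not checked. Because all livers were taken at 1 time of day, these data hold levels at that time and no rhythm.

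The mammalian clock is a feedback loop. BMAL1, the product of Arntl, pairs with CLOCK or NPAS2 and binds E-box sequences to activate the Per and Cry genes, whose products then repress the pair. In a second arm, REV-ERB receptors bind RORE sequences, recruit NCOR1 with a histone deacetylase and repress Arntl and Npas2, and in mouse liver REV-ERB protein is abundant in the light phase. Ciart encodes a further repressor of the BMAL1 pair, and Usp2 encodes a deubiquitinase with rhythmic expression in liver.

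The sequences below show the promoters on which results turn, 5′ to 3′ on the gene's strand, from RefSeq on GRCm38.p6, the assembly of mm10. Of the 10 genes, 9 had at least 1 start site in this source. Npas2 (chr1:39194022-39194271, plus strand) and Usp2 (chr9:44084670-44084919, plus strand) are the 250 bases before the start, and capitals mark the bases inside the shared region of that promoter. Ciart (chr3:95882229-95882478, minus strand) covers the same 250 bases before its start, and capitals mark the E-box CACGTG.
Npas2: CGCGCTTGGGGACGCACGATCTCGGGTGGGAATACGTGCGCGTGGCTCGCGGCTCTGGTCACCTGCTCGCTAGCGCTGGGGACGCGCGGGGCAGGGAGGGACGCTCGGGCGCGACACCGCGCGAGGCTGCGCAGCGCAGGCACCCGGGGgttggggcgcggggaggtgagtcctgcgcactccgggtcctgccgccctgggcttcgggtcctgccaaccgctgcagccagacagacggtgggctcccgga
Usp2: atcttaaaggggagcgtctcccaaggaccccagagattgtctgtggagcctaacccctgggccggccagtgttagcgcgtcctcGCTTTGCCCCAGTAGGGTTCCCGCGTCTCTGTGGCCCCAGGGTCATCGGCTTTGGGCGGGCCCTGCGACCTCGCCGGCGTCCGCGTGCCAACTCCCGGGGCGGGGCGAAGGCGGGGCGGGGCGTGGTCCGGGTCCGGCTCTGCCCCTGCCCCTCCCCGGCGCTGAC
Ciart: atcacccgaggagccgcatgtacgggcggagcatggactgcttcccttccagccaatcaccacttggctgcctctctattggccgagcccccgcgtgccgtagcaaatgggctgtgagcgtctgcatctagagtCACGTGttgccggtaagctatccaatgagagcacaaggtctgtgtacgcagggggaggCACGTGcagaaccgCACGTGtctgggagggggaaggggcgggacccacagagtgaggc
Shorter stretches of 29 bases show the matches at other members, with the motif in capitals: the RORE of Arntl (chr7:113207528-113207556, plus strand), the E-boxes of Cry1 (chr10:85185095-85185123, minus strand) and Per1 (chr11:69098774-69098802, plus strand), and the D-box TTATGTAA farthest from the start of Per3 (chr4:151044851-151044879, minus strand).
Arntl: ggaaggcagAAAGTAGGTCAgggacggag
Cry1: gccggtggtCACGTGgggtgcatgccgcc
Per1: acccaagtcCACGTGcagggatgtgtgtg
Per3: acccgcgcgTTATGTAAggtactcggggg

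Motifs were searched on both strands in windows from 250 bases before to 50 bases after each start. The 9 clock genes with a listed start had 13 windows. The E-box lay in 3 of these 13 (23.1%; Ciart, Cry1 and Per1) and in 7.15% of the 32851 windows in the source. Ciart held 3 of them, whose first bases lay 116, 58 and 44 bases before the start. The D-box, bound by PAR-domain factors of the clock, was in the window of Per3, which held 2, and in 0.938% of all windows. A RORE lay 26 bases after the second listed start of Arntl and in 0.384% of all windows, and the cAMP response element TGACGTCA, in 1.79% of all windows, was in none of the clock windows. None of these 4 motifs overlapped another in the stretches printed, and a match is a description of letters, not of binding.

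The clock genes did not move as one. Of the 50 shared regions, 9 (18.0%) rose and 8 (16.0%) fell in dKO at an adjusted p under 0.05 by limma, and 33 were not called. Over all 51749 shared regions 8.19% rose and 11.6% fell. The regions that rose lay at Arntl, Npas2 and Cry1 and those that fell at Per2, Ciart and Usp2. No gene had calls in both directions, and Clock, Per1, Per3 and Cry2 had none. The median log2 fold change of the clock regions was -0.0014 and that of all shared regions was -0.02. Among the genes of the activating arm (Arntl, Clock and Npas2) the median was 0.33, with 8 of 22 regions called higher and 0 lower. Among the repressor genes (Per1, Per2, Per3, Cry1, Cry2 and Ciart) it was -0.16, with 1 of 23 called higher and 6 lower. Of those 22 regions of the activating arm, 10 had an unadjusted p under 0.05 by limma and all 10 were higher in dKO. Over all shared regions 34.5% had such a p, in either direction. A site open in fewer nuclei and a site less open in each nucleus cannot be told apart in such bulk libraries.

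**Figure D1:**
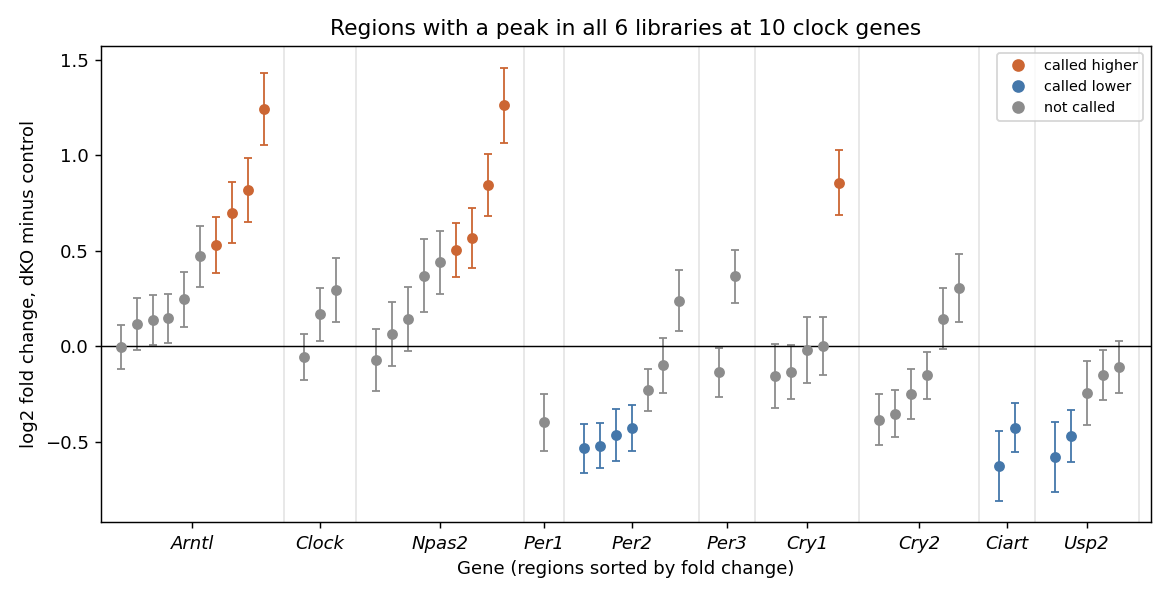
log2 fold change (dKO minus control) with its standard error for each of the 50 shared regions, grouped by gene and sorted within it, with called regions in colour. The called higher points sit at Arntl, Npas2 and Cry1 and the called lower points at Per2, Ciart and Usp2.

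Signal strength moved with direction. The regions that rose had control means of 4.25 to 26.2 normalized tags and those that fell 37.6 to 56.7. Over all shared regions, 9.46% rose and 3.74% fell of the 14970 with a mean under 10 normalized tags. Of the 25676 with a mean of 10 to 30, 10.1% rose and 12.7% fell, and of the 11103 with a mean of at least 30, 2.06% rose and 19.5% fell. Among the 11 clock regions in the lowest class 3 rose and 0 fell, and among the 22 in the middle class 5 rose and 0 fell. Among the 17 clock regions with a mean of at least 30, 1 rose and 8 fell, and their median was -0.40 against -0.17 for all regions of that strength. Under quantile normalization 10 clock regions rose and 2 fell, so the lower share of clock calls went from 47.1% to 16.7%, while over all regions it went from 58.6% to 50.6%. These limits of 10 and 30 normalized tags were chosen after the data were seen, and what part the scaling has in the lower calls was not tested.

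Npas2, which encodes the alternative partner of BMAL1, rose at its promoter. The shared region at chr1:39193965-39194170, 205 bp before the start and overlapping the sequence printed above by 149 bases, had 6.33, 11.4 and 11.7 normalized tags in control 1 to 3 and 22.2, 22.4 and 24.8 in dKO 1 to 3. Every dKO library was thus above every control library. The means were 9.81 ± 3.02 in control and 23.1 ± 1.4 in dKO (SD, n = 3 each), and the log2 fold change was 1.26 with an SE of 0.20 (limma adjusted p = 0.00184). Immediately upstream, a region 1607 bp before the start had no peak in control 1, 12.7 and 11.2 normalized tags in control 2 and control 3, and 22.2, 19.3 and 21.9 in dKO. For the next, 1332 bp before the start, peaks were called in control 1 (10.8), dKO 1 (32.7) and dKO 2 (28.2). A region 515 bp before the start had a peak in dKO 1 (16.4) and dKO 2 (16.2) only. These 3 partial regions were chosen after their values were seen, and their dKO values were all above their control values where both had a peak.

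Distal Npas2 regions rose as well. At 37334 bp before the start (chr1:39156843-39157034) the 3 control libraries had 9.63, 9.43 and 9.53 normalized tags and the dKO libraries 18.3, 17.1 and 16.0, which was 0.84 on the log2 scale (SE 0.16; adjusted p = 0.00418 by limma). The strongest shared region of Npas2, 50452 bp before the start (chr1:39143734-39143906), went from 29.5, 24.4 and 24.8 to 38.6, 36.2 and 33.2 (0.51, adjusted p = 0.0231). Inside the gene, 94374 bp after the start (chr1:39288534-39288758), control values of 5.54, 6.61 and 5.44 compared with 8.28, 8.52 and 9.36 in dKO (0.57, adjusted p = 0.0223). In each of these the groups did not overlap. The 5 other shared regions of Npas2 had log2 fold changes of -0.07 to 0.44 and were not called. A weak region 11544 bp after the start had a peak in all 3 dKO libraries (7.34, 6.85 and 4.98 normalized tags) and in no control library.

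Arntl, which encodes BMAL1, rose at sites away from its promoter. Inside the gene, 46414 bp after the start (chr7:113253828-113254022), control 1 to 3 had 10.1, 11.7 and 8.47 normalized tags and dKO 1 to 3 had 31.4, 20.6 and 21.2. The groups did not overlap, and dKO 1 was the highest. The means were 10.1 ± 1.6 and 24.4 ± 6.1 (SD, n = 3 each), and the log2 fold change was 1.24 with an SE of 0.19 (limma adjusted p = 0.00158), which was the smallest p among the clock regions. The region 43395 bp after the start (chr7:113250819-113250994) went from 10.6, 10.5 and 11.6 to 23.8, 16.8 and 17.4 (0.82, adjusted p = 0.0057). That at 35378 bp (chr7:113242761-113243018) went from 11.4, 13.2 and 11.2 to 21.9, 17.8 and 17.8 (0.70, adjusted p = 0.00938). These 3 sites are neighbours in the gene body, and no other shared region of the gene rose more. Upstream, 63753 bp before the start (chr7:113143595-113143829), a weak region went from 5.00, 5.94 and 5.83 to 8.10, 7.37 and 8.93 (0.53, adjusted p = 0.0229).

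The promoter of Arntl and its strongest site did not pass the test. The promoter region 407 bp before the start had 28.9, 25.0 and 25.5 normalized tags in control and 28.1, 27.9 and 27.6 in dKO, a log2 difference of 0.14 (SE 0.13, adjusted p = 0.489). The neighbouring shared region, which holds the RORE printed above, had 19.5, 21.9 and 22.1 in control and 22.6, 18.5 and 27.1 in dKO (0.15, adjusted p = 0.44). The strongest site, 53194 bp after the start and the next shared region beyond the one that rose most, had 75.8, 92.1 and 73.1 in control and 74.6, 64.2 and 92.8 in dKO, a log2 fold change of -0.0044 (SE 0.12). In these 3 regions the groups overlapped. Another Arntl region, 10051 bp before the start and chosen after its values were seen, had no peak in control 1, values of 4.64 and 4.77 in the other controls, and values of 10.6, 6.22 and 8.63 in dKO.

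**Figure D2:**
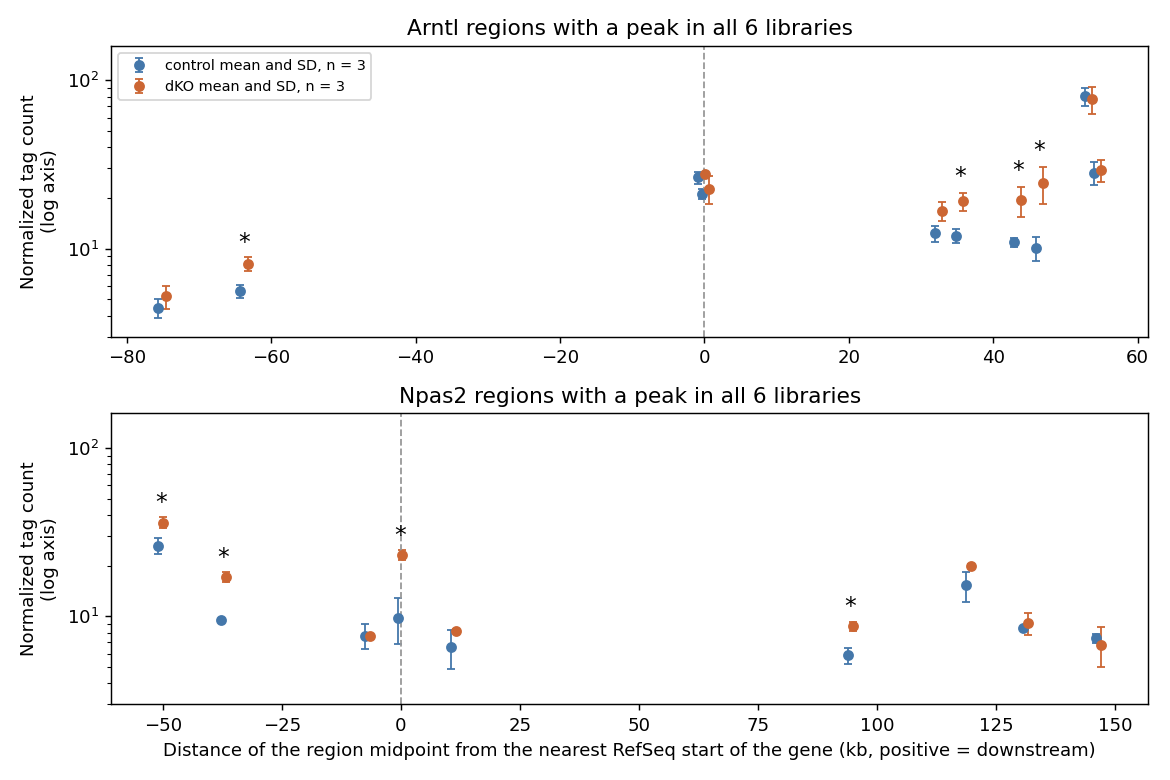
Normalized tag count (log axis, mean and SD, 3 libraries a group) of the shared regions of Arntl and Npas2 against the distance of their midpoint from the nearest start in kb, with the groups drawn 0.5 kb to either side and stars on regions called higher. At Npas2 the promoter region is starred, while at Arntl the stars lie at 1 upstream site and 3 sites in the gene body and the promoter points of both groups lie together.

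Clock, which encodes the partner of BMAL1, had 8 regions, of which 3 were shared and none was called by limma. None of the 3 had an unadjusted p under 0.05 either, against 34.5% of all shared regions. Its promoter region, 104 bp before a start, had 42.3, 48.9 and 54.7 normalized tags in control and 41.5, 38.7 and 54.9 in dKO, which was -0.06 on the log2 scale (SE 0.12; adjusted p = 0.774 by limma). The other 2 had log2 fold changes of 0.17 and 0.29.

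Per2, a period gene whose product represses BMAL1 pairs, had the most lower calls, 4 of its 7 shared regions. The strongest, at chr1:91446101-91446317 inside the gene, had 61.0, 53.3 and 55.8 normalized tags in control and 34.2, 31.8 and 48.5 in dKO. No dKO value reached the control values, and dKO 3 was the nearest to them. The means were 56.7 ± 3.9 and 38.2 ± 9.0 (SD, n = 3 each), and the log2 fold change was -0.52 with an SE of 0.12 (limma adjusted p = 0.00967). At chr1:91439905-91440131, 19333 bp from a gene end, values went from 55.5, 47.9 and 43.2 to 29.5, 26.6 and 41.1 (-0.53, adjusted p = 0.0126), while at chr1:91436702-91436934, 20841 bp from the other end, values went from 37.7, 39.8 and 35.2 to 25.8, 21.5 and 33.4 (-0.43, adjusted p = 0.0246). The groups did not overlap in either. The region at chr1:91459534-91459732, 282 bp outside a gene end, had 55.2, 41.7 and 45.4 in control and 28.9, 27.8 and 42.5 in dKO (-0.46, adjusted p = 0.0299), with dKO 3 inside the control range. The other 3 shared regions had log2 fold changes of -0.23, 0.24 and -0.10.

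At Per1, another period gene and a direct target of the glucocorticoid receptor, the single shared region lay 1800 bp before a start. It had 56.8, 42.6 and 38.1 normalized tags in control and 29.3, 29.5 and 40.0 in dKO, which was -0.40 on the log2 scale (SE 0.15; adjusted p = 0.0704 by limma), and the groups overlapped through dKO 3. It was called lower with peak width as a term (adjusted p = 0.0457 by limma) and without control 3 (0.0326). The region with the E-box printed above had a peak in control 1 (48.2) and dKO 2 (19.5) only. A region 10391 bp after a start and 578 bp beyond the gene had a peak in each dKO library (24.5, 19.3 and 21.0) and in none of the controls. Such dKO-only regions made up 1.57% of all 109853 and numbered 2 among the 102 clock regions. Those with the reverse pattern made up 1.34%, and no clock region had it. Per3, the remaining period gene, had 2 shared regions and neither was called. The one at its start had 31.1, 27.4 and 25.2 in control and 22.7, 21.3 and 29.0 in dKO (-0.14, adjusted p = 0.477), and the other had a log2 fold change of 0.37 (adjusted p = 0.0806).

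Cry1, a cryptochrome gene that carries both E-box and REV-ERB control, had 1 of 5 shared regions called, and it rose. This weak region, 8225 bp after the start (chr10:85176713-85176946), had 3.83, 5.12 and 3.81 normalized tags in control and 8.63, 8.21 and 7.35 in dKO. The groups did not overlap, and the difference was 0.85 on the log2 scale (SE 0.17; adjusted p = 0.00518 by limma). The strongest Cry1 region, 408 bp before the start, had 46.9, 35.2 and 31.2 in control and 32.6, 29.3 and 35.4 in dKO (-0.14, adjusted p = 0.528). The other 3 had log2 fold changes of -0.16 to 0.00. None of the 6 shared regions of Cry2, the other cryptochrome gene, was called by limma, with 2 at an unadjusted p under 0.05, against 34.5% of all shared regions. Its promoter region had 46.1, 40.2 and 43.4 in control and 29.0, 24.5 and 43.7 in dKO (-0.38, SE 0.14, adjusted p = 0.0601), so that dKO 1 and dKO 2 were low and dKO 3 was not. Without dKO 3 it was called lower (adjusted p = 0.00671 by limma).

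Both shared regions of Ciart fell. They flank the printed sequence with its 3 E-boxes. The region upstream of it, 457 bp before the start (chr3:95882574-95882797), had 50.9, 48.5 and 55.3 normalized tags in control and 23.3, 26.4 and 51.2 in dKO. Its means were 51.6 ± 3.4 and 33.6 ± 15.3 (SD, n = 3 each), and the log2 fold change was -0.62 with an SE of 0.18 (limma adjusted p = 0.0288), and dKO 3 lay inside the control range. The region 127 bp after the start (chr3:95882009-95882193) had 48.2, 42.4 and 42.2 in control and 27.0, 27.6 and 40.8 in dKO (-0.43, adjusted p = 0.0329), with no overlap of the groups.

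At Usp2, the region over the promoter printed above, 58 bp before the start (chr9:44084754-44084971), had 63.4, 49.0 and 54.9 normalized tags in control and 33.7, 32.1 and 51.2 in dKO. The groups overlapped through dKO 3, and the log2 fold change was -0.47 (SE 0.14, limma adjusted p = 0.0281). A region 5808 bp before the listed start but inside the gene's span (chr9:44078993-44079231) went from 45.1, 34.1 and 38.6 to 18.2, 21.8 and 37.7 (-0.58, adjusted p = 0.0394), again with dKO 3 among the controls. The 3 other shared regions had log2 fold changes of -0.24 to -0.11 and were not called. Among them was the region 105 bp from the upstream end of the gene's span (-0.15, adjusted p = 0.44 by limma).

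**Figure D3:**
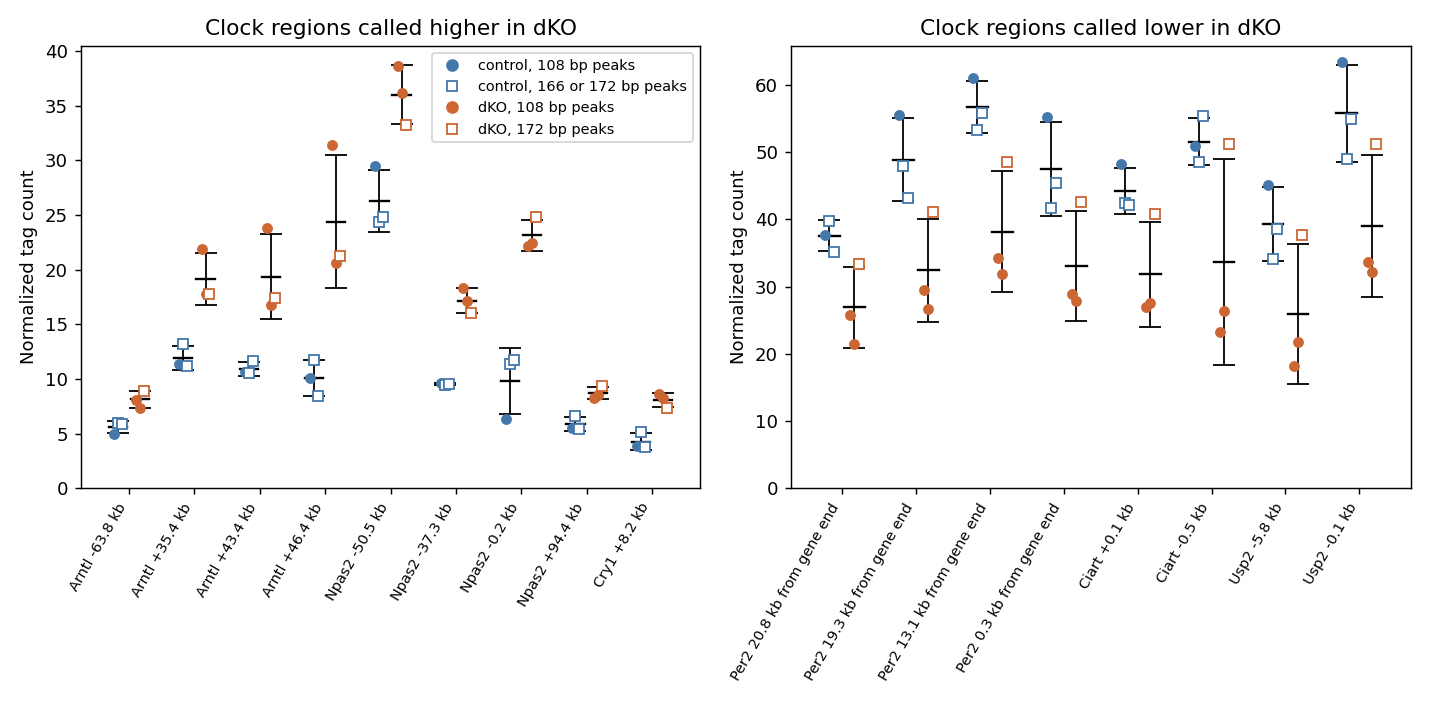
Normalized tag count in each library (points; circles for lists with 108 bp peaks, squares for 166 or 172 bp), with mean and SD, for the 9 clock regions called higher (left) and the 8 called lower (right), named by gene and distance from a start (Per2, from a gene end). On the left every dKO point is above every control point of its region, while on the right the dKO square (dKO 3) is the highest dKO point in all 8 regions.

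The higher and the lower calls differed in how evenly the dKO libraries took part. In all 9 regions that rose, each dKO value was above each control value, a pattern held by 13 of the 50 clock regions and 12.6% of all shared regions. In the 8 that fell, dKO 3 had the highest dKO value each time and lay inside the control range in 4. This was not confined to them. In the 33 shared clock regions not called, dKO 3 was highest of the dKO libraries in 26 and inside the control range in 13. It was also highest in all 17 regions that fell at the further clock genes. The share over all shared regions is not given here. All dKO values were below all control values in 4 of the 8 clock regions that fell, in 5 of the 50 clock regions and in 15.8% of all shared regions. Without dKO 3, 11 clock regions rose and 10 fell, where 10% of all shared regions rose and 15.7% fell. Without dKO 1, 5 clock regions rose and 0 fell, with 10 lower at an unadjusted p under 0.05 by limma, and over all regions 3.16% rose and 3.98% fell. Without dKO 2, 5 rose and 0 fell, against 2.43% and 2.71% of all regions, with 9 lower at an unadjusted p under 0.05 by limma. Such a p was found in 25.4% of all regions without dKO 1 and in 23.9% without dKO 2, in either direction. Calls in both directions thus dropped across the genome when either library was left out. Without control 1, 10 clock regions rose and 2 fell, against 6.40% and 8.03% of all regions.

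The deposited lists also differed in peak width, 108 bp in control 1, dKO 1 and dKO 2 and 166 or 172 bp in control 2, control 3 and dKO 3, so that dKO 3 is the only dKO library of its class. For the regions that rose, log2 fold changes were 0.46 to 1.80 within the 108 bp libraries and 0.32 to 0.94 within the others. For those that fell they were -1.01 to -0.52 and -0.26 to -0.04. All 17 kept their sign in both classes, as did 22 of the 33 shared clock regions not called. The 17 were called from these same libraries, so their agreement in sign is no separate support. When limma fitted each combination of group and class separately, with a single control in the 108 bp class and a single dKO library in the other, 8 clock regions rose and 13 fell within the 108 bp libraries, where 7.80% of all shared regions rose and 14.5% fell. Within the other class limma called 0 of all 51749 regions, clock regions included. At an unadjusted p under 0.05 there, 7 of the 50 clock regions were higher and 0 lower, against 14.5% of all regions in either direction. For the 8 clock regions that fell, the ranges of the classes did not overlap, and the decrease was larger within the 108 bp libraries. Each clock region called higher in the fit over all libraries also changed more within the 108 bp libraries, though there the ranges overlapped. With a single control in that class and a single dKO library in the other, a test of the difference between classes cannot decide whether it is real. A trait of dKO 3 and the peak width of its class cannot be told apart here, for the lower or the higher calls.

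**Figure D4:**
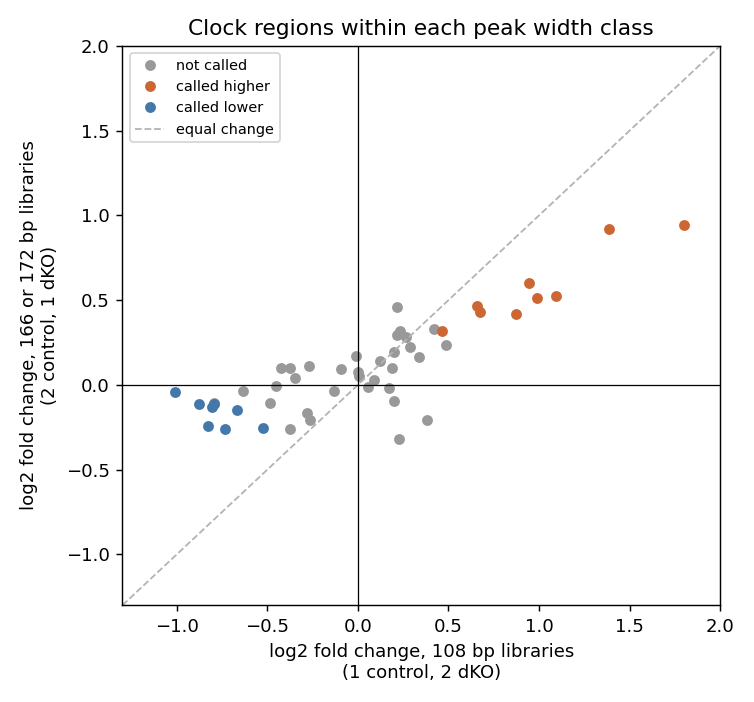
log2 fold change (dKO minus control) of the 50 shared clock regions within the 108 bp libraries (x axis) and within the 166 or 172 bp libraries (y axis), coloured by call, with a dashed line of equal change. Regions called higher reach 0.32 to 0.94 on the y axis, while regions called lower lie between -0.26 and -0.04 there.

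More clock regions had a peak in dKO than in control libraries. Peaks were called in 64, 61 and 61 of the 102 clock regions in control 1 to 3 and in 87, 86 and 66 in dKO 1 to 3, a mean of 62.0 ± 1.7 and 79.7 ± 11.8 (SD, n = 3 each; exact permutation test, 2-sided, p = 0.1, the smallest this design allows). Every dKO library had more than every control library, and dKO 3 had the fewest of the dKO libraries. Clock regions made up 0.0771%, 0.0843% and 0.0893% of all regions with a peak in the controls and 0.103%, 0.106% and 0.0924% in dKO. Arntl went from 11, 14 and 14 regions with a peak to 21, 17 and 15, and Npas2 from 10, 13 and 12 to 17, 17 and 13. Of the 52 clock regions without a peak in some library, 34 (65.4%) had one only in the 108 bp libraries, against 43.7% of the 58104 such regions in all. The 23 of these 52 with a mean of at least 15 normalized tags had a median fold over the local surroundings of 4.95, near the lowest value of 4 in each list, against 9.05 for the shared clock regions. A missing peak at a strong site therefore does not show closed chromatin.

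The 20 further genes of the clock, among them the REV-ERB and ROR receptors, output factors and clock kinases, had 129 shared regions. Of these 16 (12.4%) rose and 17 (13.2%) fell by limma, against 8.19% and 11.6% of all shared regions. The median log2 fold change was -0.07. Nfil3, a repressor that REV-ERB controls, had 2 regions that rose, the first from 5.24 ± 0.28 to 12.4 ± 2.1 normalized tags (SD, n = 3 each; 1.16, adjusted p = 0.00146). Regions at Bhlhe40 (1.08), a repressor of E-box genes, at Gsk3b (1.13), a clock kinase gene, and at Rora (0.80), a receptor that activates RORE genes, rose too. All 5 shared regions of Noct, a rhythmic phosphatase gene, fell. They had means of 30.2 to 76.7 normalized tags, and of all shared regions with a mean of at least 30, 19.5% fell. The one with the smallest p went from 37.0 ± 3.2 to 23.3 ± 1.7 (-0.58, adjusted p = 0.00644), and the one that fell most, at its start, from 72.0 ± 8.3 to 42.3 ± 18.5 (-0.77, adjusted p = 0.0152). Regions at Rora (-1.39) and Gsk3b (-0.61) fell with smaller p than these. Nr1d1 and Nr1d2, the REV-ERB genes, had 3 shared regions each, none called by limma, with 1 each at an unadjusted p under 0.05, against 34.5% of all shared regions. Among the 6141 other genes with at least 3 shared regions, Gm9949 (Pearson r = 0.998) and Mcu (0.997) were among the 3 whose mean profile over the 6 libraries was most like that of Arntl, a description from 6 points.

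As a check of the tissue label, all 8 hepatocyte marker genes had regions. In all sums of marker values a missing peak counted as 0. The hepatocyte sums ranged from 1400 to 2127 normalized tags in control and from 1183 to 1358 in dKO. Of 34 shared hepatocyte marker regions 19 fell and 0 rose, while over all shared regions 11.6% fell and 8.19% rose. These marker regions had a median of 27.8 normalized tags, against 15.9 for all shared regions. Of all shared regions with a mean of at least 30, 19.5% fell and 2.06% rose. The direction of the marker calls was that of the 8 lower clock calls and the opposite of the 9 higher ones. Kupffer cell markers had 7 regions, none shared, with none at Vsig4, Timd4 and C1qa and sums of 7.72 to 13.6 in control and 3.71 to 23.9 in dKO. Sinusoidal endothelial markers (6 of 6 genes with regions) summed to 426 to 545 and 375 to 522, with 3 of 26 shared regions higher and 4 lower. Stellate markers (6 of 6) summed to 122 to 153 and 115 to 150, with 1 of 10 higher. Cholangiocyte markers (3 of 6, none at Krt19, Krt7 and Cftr) summed to 126 to 172 and 131 to 158, with 1 of 8 higher, and lymphocyte markers (2 of 4) to 54.8 to 64.9 and 46.4 to 65.0, with 0 of 3 called. The part of cell makeup or of a general loss at hepatocyte genes in the clock results was not tested.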

How the data were processed

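Chromatin accessibility was measured by ATAC-seq in 6 libraries, 3 control and 3 dKO. Per the submitters' processing notes, Trim Galore 0.6.4, Picard, SAMtools 1.10 and HOMER 4.11 were used with mm10. No aligner, read filter or peak calling option is given in the sources used here. Each deposited list gives for every peak, per the file headers, a normalized tag count, which is a signal scaled to library depth by the authors. The total number of tags is unknown. The deposited lists also hold a fraction (focus ratio), a score, a ratio (fold over local surroundings) and a p-value from the authors' peak finder. The signal was analysed. The score and the fold only filtered or described peaks, and the fraction and p-value were not used.

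The lists held 68316 to 84614 peaks, and their lowest values were 2.78 to 3.58 normalized tags. Peaks on chromosomes 1 to 19 and X that shared at least 1 bp were merged, and a library's value was its highest normalized tag count in a region. Shared regions were compared as log2(value + 1), each library centred on its median, with limma 3.58.1 (R 4.3.3, trended prior variance) and Benjamini-Hochberg adjustment over all 51749 regions. Fold changes on this scale understate weak regions. The code was tested on simulated data. Counts were compared by an exact permutation test (scipy 1.17.1). Genes and start sites came from RefSeq on GRCm38.p6. The members and lists were chosen with earlier results of these data known. All 10 genes were described, and regions were named if called, if strongest within 1 kb of a start (Per2, a gene end) or of the gene, or if only the libraries of one group, and all of them, had a peak. Among further clock genes, the 4 with the smallest p in each direction were named, 1 region for each gene. Some items that these rules would name are not reported here. Alternatives changed the pseudocount, scaling, filter, overlap, gene link, covariates and libraries.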

Additional observations from a re-analysis of the deposited data

How the results depend on the processing

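With 3 libraries a group and no tag totals, depth limits the precision to the spread between libraries. The number of clock regions called higher was 9, and 5 to 11 when each library was left out in turn; it was 0 within the 166 or 172 bp libraries, where limma called 0 of all 51749 regions (14.5% at an unadjusted p under 0.05). The number called lower was 8, and 0 to 10 when each library was left out; it was 4 without centring, 2 under quantile normalization, 13 within the 108 bp libraries and 0 within the others, against 11.6% of all regions in the fit reported, 9%, 8.86%, 14.5% and 0. For the 20 further clock genes the counts were 16 and 17, with 5 to 18 and 4 to 24 when each library was left out; within the 108 bp libraries 30 fell, and within the others 0 rose and 0 fell, in the same fits and against the same shares of all regions. The 2 within-class fits were added after the data were seen. Clock regions with peaks throughout one group and nowhere in the other numbered 2, and 5 in the stricter part of each list by score, and 2 to 11 when each library was left out. With a library left out the rule is looser for every region. The shares of all regions under these settings are not given here, so the rise cannot be read as a result about the clock regions. The cause of these changes was not tested.

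Clock regions with a peak per library differed by 17.7 (dKO minus control), and by 14.0 to 24.5 over all alternatives. The Npas2 promoter region, that 37334 bp before its start, the Arntl regions at 43395 and 46414 bp and the Cry1 region kept their call in every alternative that tested them, apart from the 2 within-class fits. Each of the 12 other called regions lost it without dKO 1 and without dKO 2, and some in other alternatives too. Calls were also gained. The Per1 region 1800 bp before a start was called lower with peak width as a term (adjusted p = 0.0457), without control 3 (0.0326), with the replicate block (0.0437) and within the 108 bp libraries (0.00657). The Cry2 promoter region was called lower without dKO 3 (0.00671), with the block (0.0354) and within the 108 bp libraries (0.00894). Over 69 clock regions called in at least 3 libraries, 13 rose and 7 fell (6.55% and 8.41% of all regions so tested).

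Some named regions that were not called changed sign. The strongest Arntl region was 0.0710 with a mean of at least 10 normalized tags, 0.0403 with peak width as a term, 0.169 under quantile normalization, and 0.00244 and 0.0781 within the 108 bp libraries and the others. Leaving out each library gave -0.0749 to 0.0982 for it. The Clock promoter region was 0.0193 with that mean, 0.0215 with peak width as a term, 0.120 under quantile normalization, 0.0559 within the 108 bp libraries, and -0.145 to 0.0239 when each library was left out. The Cry1 promoter region was 0.0280 under quantile normalization and -0.267 to 0.0325 when each library was left out. The Per3 start region was 0.0399 within the 166 or 172 bp libraries.

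Samples share replicate numbers in the labels. The deviations of same-numbered libraries from their group means had correlations of 0.15, -0.03 and 0.23 across regions, and those of unlike-numbered libraries -0.23 to 0.16. So few libraries cannot decide whether the numbers pair them. With the replicate number as a block, 11 clock regions rose and 11 fell, and 20 and 22 at the further clock genes, while over all regions 10.5% rose and 14.3% fell.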
